A study of Rattus norvegicus with 84 samples.

Results

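The genes described here encode the subunits of voltage-gated sodium channels and voltage-gated calcium channels. They are the 32 of 41919 genes in the deposited tables whose symbols name a sodium channel alpha or beta subunit (Scn genes ending in a or b), a calcium channel alpha1 subunit (Cacna1 and a letter), an alpha2delta subunit (Cacna2d) or a calcium channel beta subunit (Cacnb). The choice rests on symbols alone, but it was made with earlier results of these data known.

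Voltage-gated channels open when the membrane is depolarized. Sodium channels consist of a pore-forming alpha subunit with beta subunits beside it, and they carry the upstroke of the action potential. Calcium channels consist of an alpha1 pore with alpha2delta and beta subunits, and they couple depolarization to transmitter release, firing patterns and gene transcription. Recordings from rat nucleus accumbens neurons are known to show smaller sodium and calcium currents after repeated cocaine.

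RNA came from the shell and the core of the nucleus accumbens of wild-type Long-Evans rats. The labels give each subregion (Shell and Core) 6 groups of 7 libraries, which makes 12 groups and 84 libraries: Ext_Coc, Ctx_Coc and HC_Coc, which received cocaine, and Ext_Sal, Ctx_Sal and HC_Sal, which received saline. The study set out to compare withdrawal with extinction, and Ext is its extinction condition. In this field Ctx and HC commonly stand for context and home cage, which the labels do not spell out. The labels give no age, sex, dose or time of sampling. Nothing in them ties each library to an animal of its own, so the p-values below rest on the spread between libraries, which may be technical.

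Libraries ranged in depth between 13.6 and 22.5 M (mega) counts, 17.2 ± 1.98 M on average (SD over 84 libraries). Genes of the nose, 1845 receptors for odours and pheromones that the brain hardly uses, gave a level of reads without expression. In FPKM (fragments per kilobase of gene and M counts) this receptor level was 0.198 ± 0.0733 on average in Shell libraries and 0.170 ± 0.144 in Core libraries (SD, 42 libraries each). It was under 0.05 FPKM in 15 libraries, 2 of them Shell and 13 Core. One library stood apart, Core Ctx_Coc 17-F, with a receptor level of 0.825 FPKM, and results that rest on it are given with and without it. Markers of projection neurons were present, with a summed level of 44.5 to 164 FPKM in Shell and 15.1 to 220 FPKM in Core libraries, and none of the 10 was at 0 throughout.

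All 32 channel genes passed the filter on low counts in the fits to the deposited counts, and 30 did once the receptor level was subtracted from the counts. In FPKM, averaged over the 84 libraries, they ran from 0.109 for Cacna1f to 11.2 for Scn2b, and 30 of 32 lay above the receptor genes' mean of 0.184 FPKM. These levels are per base of the gene lengths that the counts and FPKM imply, 9920 to 814060 bases with a median of 111934. Such lengths span introns, so an FPKM here is not a level per base of mature mRNA. For each member the median over libraries lay within 1 SD of the mean.

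**Figure D1:**
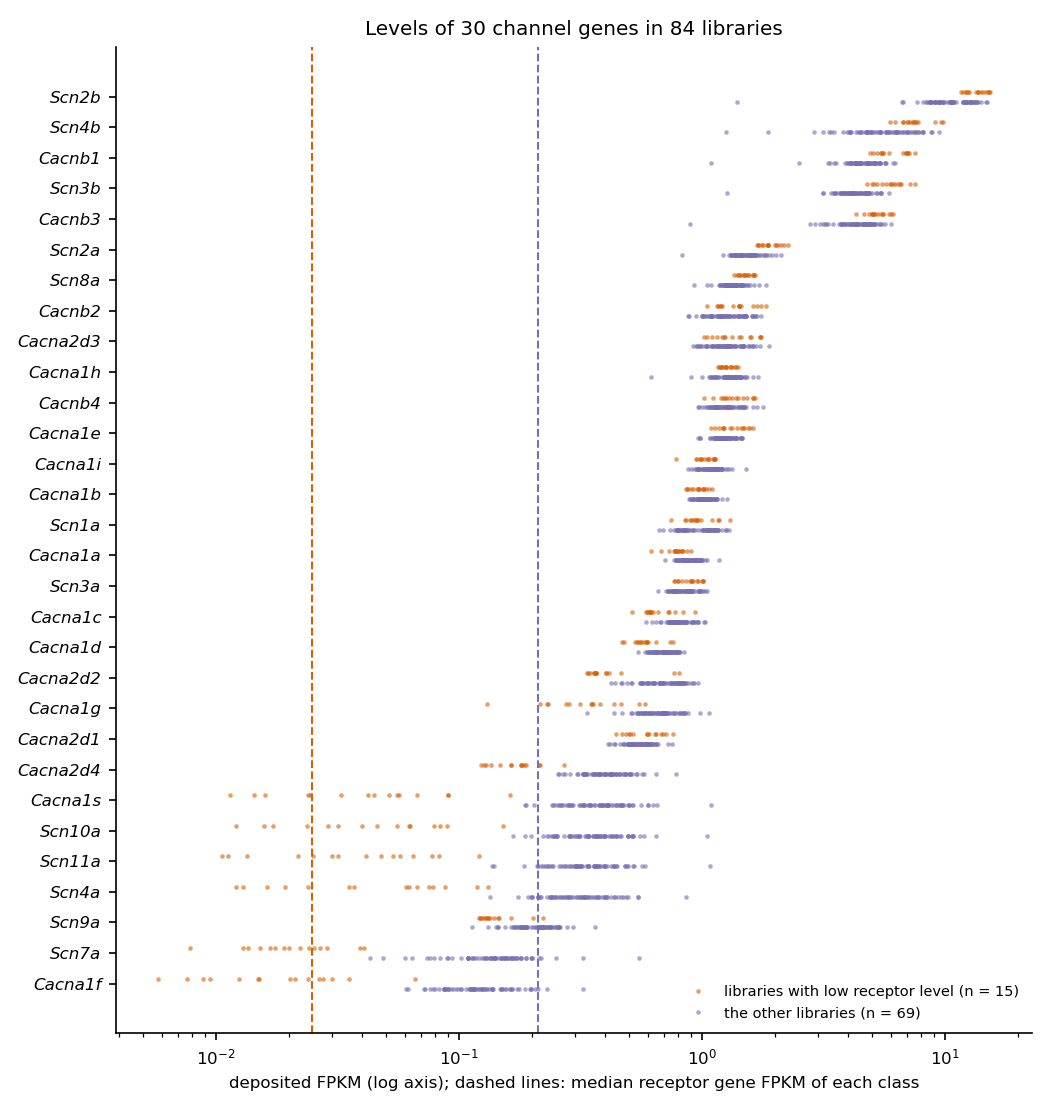
Deposited FPKM of 30 channel genes on a log axis, ordered by mean, with 1 point per library, the 15 libraries of low receptor level apart from the other 69 and dashed lines at the median receptor level of each class. Scn2b lies highest, at a mean of 11.2 FPKM. Cacna1s, Scn10a and Scn11a have lower medians in the 15 libraries, while Scn2b has a median of 13.7 FPKM there and 10.7 FPKM in the other 69.

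Among the sodium channel beta subunits, which anchor the pore and tune its gating, Scn2b had the highest level of all members. It ran from 8.13 through a median of 12.2 to 15.2 FPKM in Shell, and from 1.40 through 10.0 to 15.4 FPKM in Core, where the value of 1.40 is library 17-F. The Shell range lay inside the Core range, with and without that library. Scn4b, known in striatal neurons for supporting resurgent sodium current, averaged 5.97 FPKM and Scn3b 4.57 FPKM.

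Scn2b and Scn4b are neighbours in the RefSeq gene order and have the highest mean FPKM of the sodium channel genes. In mean counts, not divided by gene span, Scn8a (4149) and Scn2a (3744) exceeded Scn2b (2367) and Scn4b (1633). The promoters of Scn2b and Scn4b are shown because they differ in base composition. The sequences are the RefSeq promoters of build GRCr8, 250 bases before to 50 after the annotated start. Scn2b lies on chr8:54322133-54322432 (plus strand) with 39% G and C and 2 CpG dinucleotides. Scn4b lies on chr8:54343623-54343922 (plus strand) with 70.0% G and C and 24 CpG. Capitals would mark a match to a searched motif, and neither window held one.
Scn2b: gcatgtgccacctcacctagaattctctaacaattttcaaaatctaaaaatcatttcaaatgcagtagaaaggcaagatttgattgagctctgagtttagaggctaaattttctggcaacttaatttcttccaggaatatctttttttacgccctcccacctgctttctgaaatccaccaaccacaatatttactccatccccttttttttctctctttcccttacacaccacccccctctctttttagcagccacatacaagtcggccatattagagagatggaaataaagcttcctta
Scn4b: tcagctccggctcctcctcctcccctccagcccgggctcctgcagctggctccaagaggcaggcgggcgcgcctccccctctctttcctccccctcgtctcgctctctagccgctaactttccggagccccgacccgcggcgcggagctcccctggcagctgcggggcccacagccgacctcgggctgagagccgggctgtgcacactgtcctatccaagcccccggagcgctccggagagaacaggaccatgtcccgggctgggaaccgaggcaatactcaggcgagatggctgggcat

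The motifs searched on both strands were the GC box GGGCGG, the TATA box TATAAA, the cyclic AMP response element TGACGTCA and the AP-1 site TGANTCA. The last 2 of these cannot share a match, and overlapping GC boxes were each counted. RefSeq promoters were found for 22 of the 32 members. A GC box lay in 12 of the 22, against 33.1% of all 33469 promoters in the table. The TATA box lay in 1 of the 22 (Cacna1s) against 14.2%, the AP-1 site in 1 (Scn3a) against 7.33%, and the cyclic AMP response element in 0 against 1.83%. The members' promoters had a median of 62.0% G and C and 10.5 CpG, against 51.7% and 7 for all promoters. A match describes these letters and is not a site of binding.

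Among the sodium channel alpha subunits, Scn2a, whose channel serves the initial segment and unmyelinated axons, had the highest mean level, 1.60 FPKM. Scn8a, whose channel clusters at axon initial segments and nodes of Ranvier, averaged 1.38 FPKM, Scn1a, the main alpha subunit of fast-spiking interneurons, 0.978 FPKM, and Scn3a, best known from the developing rodent brain, 0.857 FPKM. Means of 0.125 to 0.316 FPKM were those of Scn4a of skeletal muscle, Scn9a, Scn10a and Scn11a of peripheral sensory neurons, and Scn7a, a sodium sensor. Scn9a exceeded the receptor level of its own library in 47 of 84 libraries and Scn7a in 3 of 84.

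Of the calcium channel beta subunits, which bring the pore to the membrane, Cacnb1 and Cacnb3 had the highest FPKM of the calcium channel genes, with means of 4.86 and 4.51 FPKM, while Cacnb2 averaged 1.30 and Cacnb4 1.28 FPKM. This order holds per base of gene span, since long genes such as Cacna2d3 gave more counts than Cacnb1. The alpha1 subunits ran from 0.109 to 1.29 FPKM. Of the T-type pores, which open at low voltage and support bursts, Cacna1h averaged 1.29 FPKM, Cacna1i 1.09 and Cacna1g 0.614. Of the presynaptic pores, Cacna1e (R-type) averaged 1.26 FPKM, Cacna1b (N-type) 1.02 and Cacna1a (P/Q-type) 0.876. The L-type pores of neurons, Cacna1c and Cacna1d, averaged 0.782 and 0.680 FPKM. Cacna1s of skeletal muscle averaged 0.330 FPKM, and Cacna1f of the retina, at 0.109 FPKM, exceeded its library's receptor level in 5 of 84 libraries. Among the alpha2delta subunits, which raise the number of channels at the surface, Cacna2d3 averaged 1.29 FPKM, Cacna2d2 0.654, Cacna2d1 0.561 and Cacna2d4 0.370.

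The members fell into 2 kinds by how they stood to the receptor level in the 15 libraries where that level was under 0.05 FPKM. There 23 members had a median of over 10 times the receptor level of the same library, from 12.7 times for Cacna1g to 504 times for Scn2b. The other 9 were at or under 10 times, from 0.657 times for Cacna1f to 6.34 times for Cacna2d4, and include Scn4a, Scn7a, Scn9a, Scn10a, Scn11a, Cacna1f, Cacna1s and Cacna2d4. This limit of 10 was chosen after the values were seen and serves only to describe.

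Cacna1s had a median of 0.0446 FPKM in the 15 libraries of low receptor level and 0.380 FPKM in the other 69, a ratio of 8.51. Scn10a had medians of 0.0461 and 0.367 FPKM. These muscle and sensory neuron genes were thus low in the same libraries as the receptor genes. Scn2b went the other way, with medians of 13.7 FPKM in the 15 libraries and 10.7 FPKM in the other 69. Members far above the receptor level differed among themselves in this. Cacna2d2 had medians of 0.367 FPKM in the 15 libraries and 0.697 FPKM in the other 69, and Cacna1g of 0.349 and 0.681 FPKM. Of the 15 libraries, 13 are Core. In library 17-F, Scn2b stood at only 1.69 times the receptor level. Levels of many members thus differed with the receptor level, which is given beside the comparisons.

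**Figure D2:**
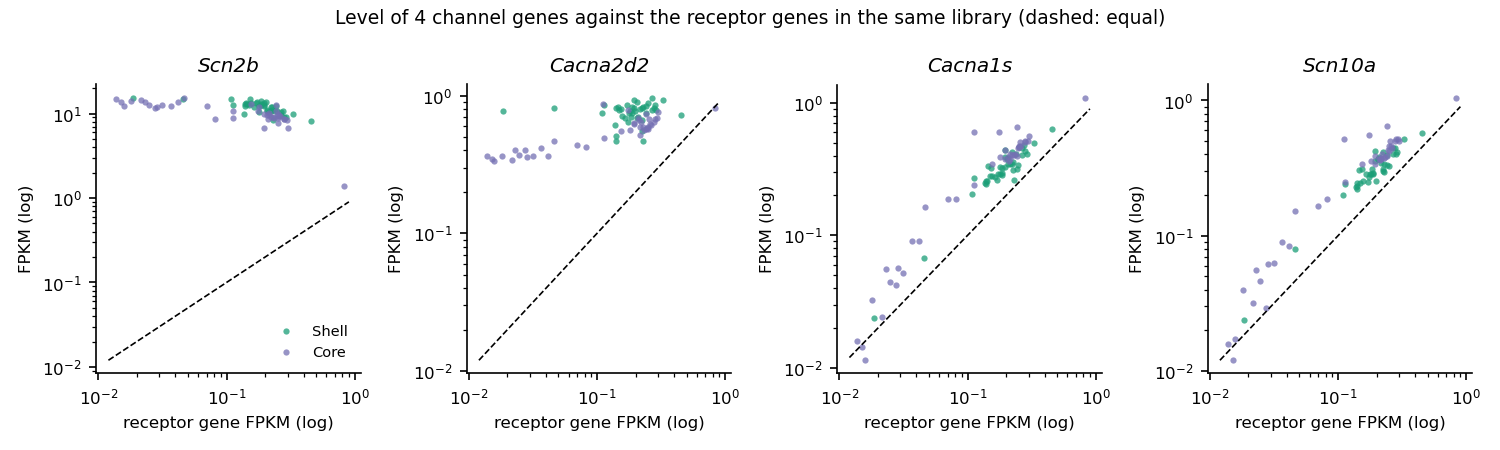
FPKM of Scn2b, Cacna2d2, Cacna1s and Scn10a in each library against the FPKM of the receptor genes in the same library, both on log axes, with Shell and Core in different colours and a dashed line where both are equal. Scn10a climbs along the dashed line, and Scn2b lies far above it except in library 17-F, where it is 1.40 FPKM.

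Between subregions, 5 channel genes were higher and 2 lower in Shell than in Core, averaged over the 6 groups. Among the higher ones were the sodium channel alpha subunits Scn9a and Scn7a, the T-type pore Cacna1g and the alpha2delta subunit Cacna2d2. The lower ones were the alpha2delta subunit Cacna2d1 and the T-type pore Cacna1i. In the edgeR test across 32145 genes at an adjusted p of 0.05, 4.56% of all genes were higher and 8.77% lower, 13.3% in all. The 7 of 32 members called thus stood among a background of 13.3%. The median log2 fold change was -0.03 over the members and 0.05 over all genes.

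Cacna2d2, an alpha2delta subunit that binds gabapentin, ran from 0.467 through a median of 0.788 to 0.966 FPKM in Shell and from 0.337 through 0.569 to 0.864 FPKM in Core. The subregions overlapped, but 39 of 42 Shell libraries lay above the Core mean. It averaged 0.759 ± 0.114 FPKM in Shell and 0.549 ± 0.146 FPKM in Core (SD, n = 42 each), and the fitted log2 fold change was 0.40 (SE 0.05, adjusted p = 1.41e-09). Cacna2d1, the main target of gabapentin, differed the other way. It ran from 0.411 through 0.518 to 0.755 FPKM in Shell and from 0.487 through 0.591 to 0.762 FPKM in Core, and 36 of 42 Shell libraries lay below the Core mean. Its log2 fold change was -0.31 (SE 0.07, adjusted p = 0.00122). The other alpha2delta genes, Cacna2d3 and Cacna2d4, had log2 fold changes of 0.00 and -0.04 and were not called.

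The promoters of these 2 alpha2delta genes are shown because the genes differ in opposite directions between the subregions. Cacna2d2 lies on chr8:116950856-116951155 (plus strand, GRCr8), with 77.0% G and C, 44 CpG and 2 GC boxes. Cacna2d1 lies on chr4:20330098-20330397 (minus strand, GRCr8), with 78.3% G and C, 41 CpG and 7 GC boxes. It has 3 starts in the RefSeq table, of which the first is printed. Capitals mark the GC boxes, GGGCGG on either strand.
Cacna2d2: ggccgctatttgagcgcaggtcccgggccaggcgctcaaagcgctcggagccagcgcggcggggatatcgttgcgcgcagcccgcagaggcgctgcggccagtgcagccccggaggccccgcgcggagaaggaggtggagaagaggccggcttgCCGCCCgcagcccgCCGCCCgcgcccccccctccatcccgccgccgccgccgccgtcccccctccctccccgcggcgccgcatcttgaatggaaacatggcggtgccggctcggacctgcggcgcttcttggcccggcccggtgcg
Cacna2d1: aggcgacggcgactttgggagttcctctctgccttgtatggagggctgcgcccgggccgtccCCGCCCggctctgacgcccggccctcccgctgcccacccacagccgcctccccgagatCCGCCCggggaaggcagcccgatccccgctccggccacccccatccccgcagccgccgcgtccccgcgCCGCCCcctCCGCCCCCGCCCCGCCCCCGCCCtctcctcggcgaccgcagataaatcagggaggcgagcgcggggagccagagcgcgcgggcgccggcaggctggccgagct

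Both windows are rich in CpG and hold GC boxes, so that these letters do not separate the gene that was higher in Shell from the one that was lower.

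Scn9a, a pore of peripheral sensory neurons that also occurs in brain, ran from 0.181 through 0.223 to 0.294 FPKM in Shell and from 0.114 through 0.168 to 0.362 FPKM in Core. All 42 Shell libraries lay above the Core mean, and the Core value of 0.362 came from library 17-F, without which Core reached 0.219 FPKM. The log2 fold change was 0.37 (SE 0.04, adjusted p = 4.18e-11). Its group medians were 0.212 to 0.236 FPKM in the 6 Shell groups and 0.145 to 0.189 FPKM in the 6 Core groups, so that these medians did not overlap. These levels are close to those of the receptor genes, whose means were 0.198 FPKM in Shell and 0.170 FPKM in Core.

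Cacna1g, the T-type pore of bursting neurons, ran from 0.510 through 0.686 to 0.986 FPKM in Shell and from 0.130 through 0.577 to 1.07 FPKM in Core. The Shell range lay inside the Core range, and 41 of 42 Shell libraries exceeded the Core mean. It averaged 0.694 ± 0.106 FPKM in Shell and 0.534 ± 0.195 FPKM in Core (SD, n = 42 each), with a log2 fold change of 0.35 (SE 0.06, adjusted p = 1.45e-05). Cacna1i, the T-type pore known from thalamic reticular and striatal neurons, averaged 1.06 ± 0.0952 FPKM in Shell and 1.11 ± 0.114 FPKM in Core (SD, n = 42 each). Its log2 fold change was -0.20 (SE 0.07, adjusted p = 0.0291), and 30 of 42 Shell libraries lay below the Core mean. Cacna1h, the third T-type pore, was not called (log2 fold change -0.20, adjusted p = 0.103).

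Scn7a was called as higher in Shell at a low level. It averaged 0.141 ± 0.0541 FPKM in Shell and 0.109 ± 0.0947 FPKM in Core (SD, n = 42 each), with a log2 fold change of 0.52 (SE 0.15, adjusted p = 0.0126), and 34 of 42 Shell libraries lay above the Core mean. It is 1 of the 9 members at or under 10 times the receptor level, and it lay above the receptor genes of its own library in 3 of 84 libraries. With the receptor level as a covariate its log2 fold change was 0.26 (adjusted p = 2.79e-07), and in the numbered libraries alone 0.37 (adjusted p = 0.0667).

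No sodium channel beta subunit, L-type, P/Q-, N- or R-type pore or calcium channel beta subunit was called by edgeR (0 of 15). At an unadjusted p under 0.05, 3 of these 15 passed, and DESeq2 called 1, Scn3b. The lowest p among these were those of Scn3b, with a log2 fold change of -0.33 (adjusted p = 0.0591), and Scn4b, with -0.38 (adjusted p = 0.0749). Over all members 13 of 32 passed the unadjusted threshold, 6 higher and 7 lower, against 29.2% of all genes. DESeq2 called 6 members as higher and 3 as lower, against 4.34% and 9.96% of all genes. The additions were Scn1a as higher and Scn3b as lower. Scn1a averaged 1.09 ± 0.0954 FPKM in Shell and 0.861 ± 0.0950 FPKM in Core (SD, n = 42 each), and 41 of 42 Shell libraries lay above the Core mean, while its edgeR log2 fold change was 0.18 (adjusted p = 0.155).

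**Figure D3:**
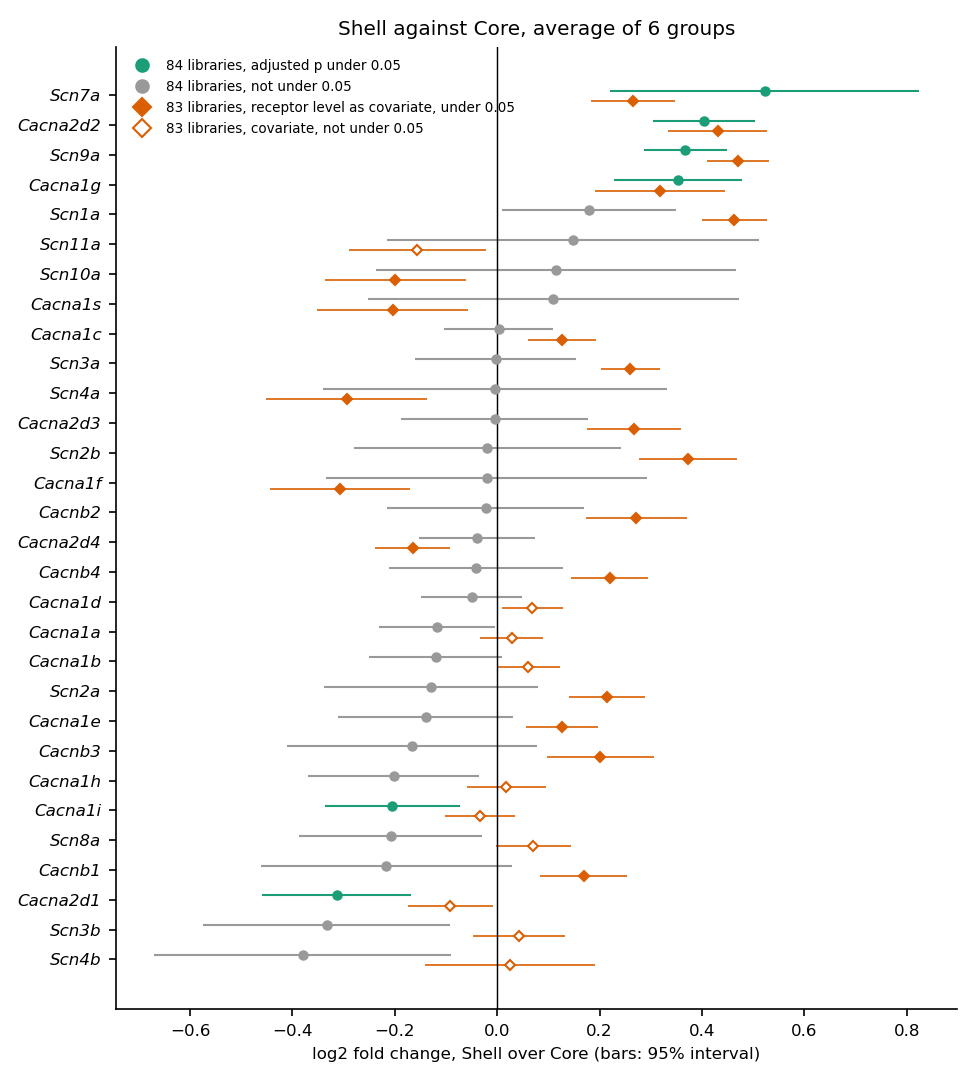
Log2 fold change of Shell over Core for each of 30 channel genes, averaged over the 6 groups, with 95% intervals, in the fit to all 84 libraries (circles, green where the adjusted p is under 0.05) and with the receptor level as a covariate and without 17-F (diamonds, filled where under 0.05). Cacna2d2, Scn9a and Cacna1g lie above 0 in both fits, at 0.40, 0.37 and 0.35 in the fit to all libraries, while the fit with the covariate moves most abundant members upward.

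These calls depended in part on the libraries and on the receptor level. Leaving out 17-F kept all 7 calls and added 4 as lower, Scn3b, Scn4b, Cacna1h and Scn8a, with log2 fold changes of -0.36, -0.41, -0.23 and -0.23. All genes gained calls too, with 12.6% higher and 13.7% lower. With the receptor level as a covariate and without 17-F, 17 members were higher and 5 lower, against 28.6% and 15.3% of all genes. The calls of Cacna2d1 (log2 fold change -0.09, adjusted p = 0.0698) and Cacna1i (-0.03, adjusted p = 0.466) were lost there. In that fit the log2 fold changes were 0.47 for Scn9a, 0.46 for Scn1a, 0.43 for Cacna2d2 and 0.32 for Cacna1g. With the receptor level subtracted from the counts instead, and without 17-F, Cacna2d2 stood at 0.62 (adjusted p = 1.66e-13) and Cacna1g at 0.53 (adjusted p = 8.40e-07), while Scn9a, at 0.38, was not called (adjusted p = 0.704). Of the 23 members far above the receptor level, 4 had a positive and 19 a negative value in the main fit, against 21 positive and 2 negative with the covariate and without 17-F. Their common direction turned with the treatment of the receptor level, and no direction is given for them as a group. In the numbered libraries alone, without the F series, Scn9a, Cacna2d2 and Cacna1g were higher and Cacna2d1 was lower, against 2.75% and 7.08% of all genes, and Cacna1i was no longer called (-0.18, adjusted p = 0.0631). In the F series alone, which holds both subregions, 0 members were called, or 2, Cacna1g among them, as higher without 17-F, against 0.876% of all genes, while all 7 kept their direction.

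In the 15 libraries of low receptor level the 2 subregions can be set side by side, with no test, since only 2 are Shell. The receptor level was low there but not absent. It was 0.0458 FPKM in Shell 24-F, 0.0186 FPKM in Shell 6-F and 0.0138 to 0.0466 FPKM in the 13 Core libraries. Both Shell libraries, 24-F and 6-F, lay above all 13 Core libraries in 6 members and below all of them in 1, and the other 25 overlapped. The share of all genes that separate in this way was not counted, so these counts have no background beside them. Cacna2d2 stood at 0.809 and 0.772 FPKM in Shell, against 0.337 to 0.466 FPKM in Core. Cacna1g stood at 0.583 and 0.549 FPKM in Shell, against 0.130 to 0.467 FPKM in Core. Cacna2d1, the member below, stood at 0.445 and 0.468 FPKM in Shell, against 0.487 to 0.762 FPKM in Core. Other members above were Scn1a (1.18 and 1.30 FPKM in Shell, 0.749 to 1.17 FPKM in Core), Scn9a (0.201 and 0.222 against 0.121 to 0.164 FPKM) and Scn3a (1.02 and 1.01 against 0.767 to 0.999 FPKM). These genes were singled out after their values were seen.

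Within single groups few members passed. In HC_Coc, Cacna2d2 was higher in Shell with a log2 fold change of 0.55 (adjusted p = 0.00445), 1 of 32 members against 1.52% of all genes. In HC_Sal, Scn9a (0.52, adjusted p = 0.00111) and Cacna2d2 (0.51, adjusted p = 0.0158) were higher, 2 of 32 against 0.946%. In Ext_Sal, Scn9a was higher (0.42, adjusted p = 0.0153), 1 of 32 against 1.15%. By edgeR 0 of 32 members were called in Ext_Coc (background 1.71%), Ctx_Coc (0.109%) and Ctx_Sal (1.65%). There 9, 3 and 2 members passed an unadjusted p under 0.05 by edgeR, against 4622, 797 and 2926 of all 32145 genes. DESeq2 called 1 member in each, against 2.75%, 0.709% and 2.69% of all genes. Scn9a lay above the Core group mean in 7 of 7 Shell libraries in each of the 6 groups.

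Markers of other cell types differed between the subregions beside these genes. Summed over 9 myelin genes, the level ran from 31.0 through a median of 50.7 to 73.0 FPKM in Shell and from 16.2 through 150 to 260 FPKM in Core, and all 9 were called as lower in Shell. All 5 markers of oligodendrocyte precursors were lower, and of 10 interneuron markers 5 were higher and 2 lower. In bulk tissue, fewer cells of a type and less RNA per cell cannot be told apart, and the part of cell makeup in the channel differences was not tested. Of 10 projection neuron markers, 1 was higher and 3 were lower in Shell, with summed medians of 120 FPKM in Shell and 144 FPKM in Core. In the fit with the receptor covariate and without 17-F, 5 of these 10 were higher and 2 lower, against 28.6% and 15.3% of all genes. Their median log2 fold change there was 0.18, against -0.20 in the fit to all 84 libraries, for which the shares of all genes are given above. Markers of neighbouring cortex, 0 of 5 of which were called, summed to 0.333 to 23.6 FPKM in Shell and 0.217 to 10.4 FPKM in Core.

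Proteins that bind these channels form the rest of the pathway. Of 11 sodium channel partners, Fgf13, which binds the alpha subunit's tail, was higher in Shell (log2 fold change 0.18, adjusted p = 0.0265) and Nfasc, an adhesion protein of nodes and initial segments, was lower (-0.49, adjusted p = 4.63e-06). Every one of the 42 Shell libraries lay below the Core mean of Nfasc. In the fit with the receptor covariate and without 17-F, 9 of the 11 were higher and 1 lower (median 0.18, against -0.10 in the fit to all 84 libraries), and with that level subtracted 5 were higher and 1 lower. Of 20 calcium channel partners, 4 were higher and 4 lower, or 8 and 4 with the covariate and 9 and 4 with the subtraction, both without 17-F. Of all genes, 28.6% were higher and 15.3% lower with the covariate and without 17-F, and 15.3% and 12.2% with the subtraction. The shares of all genes in the fit to all 84 libraries are given above. Stac, an adaptor of L-type channels, was higher (0.66, adjusted p = 0.000356), as was Rimbp2, a release-site protein that binds presynaptic calcium channels (0.13, adjusted p = 0.00167). The small GTPase gene Rrad, whose product inhibits calcium channels, was lower (-0.49, adjusted p = 1.31e-06), as was Cacng3, a member of the gamma subunit family that serves AMPA receptors (-0.31, adjusted p = 0.000408).

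Cocaine and saline libraries did not differ in any channel gene past the threshold. There were 26 comparisons within a subregion, which cover cocaine against saline, the 3 conditions against each other and the differences of drug effects. Over these, edgeR called 0 of 32 members and 0 of all genes tested. DESeq2 called 0 members, against 7 calls over all genes in the 26 comparisons together. At an unadjusted p under 0.05, between 0 and 10 members passed by edgeR and between 0 and 12 by DESeq2, and 13 of the 26 comparisons had 0 members by edgeR. Of all genes, between 53 of 31370 and 4921 of 30911 passed that threshold by edgeR. In each of the 6 comparisons of cocaine with saline by condition, the ranges of the 7 cocaine and 7 saline libraries overlapped for all 32 members. Of all genes tested, between 0.00319% (Core Ctx) and 0.0259% (Shell Ctx) had ranges that did not overlap. In the main fit by edgeR the lowest adjusted p was 0.294, shared by Cacna1g, Cacna1i, Cacna1c and others in Shell Ctx_Coc against HC_Coc. The 3 tests of whether the cocaine effect differed between Shell and Core called 0 members by edgeR. In the main fit they had 0 at an unadjusted p under 0.05, against 0.376%, 0.308% and 1.76% of all genes in Ext, HC and Ctx. With the receptor level as a covariate 0, 0 and 7 members passed that threshold, and 1, 0 and 5 with 17-F also left out. The shares of all genes are not given for these counts, and none of these members was called.

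**Figure D4:**
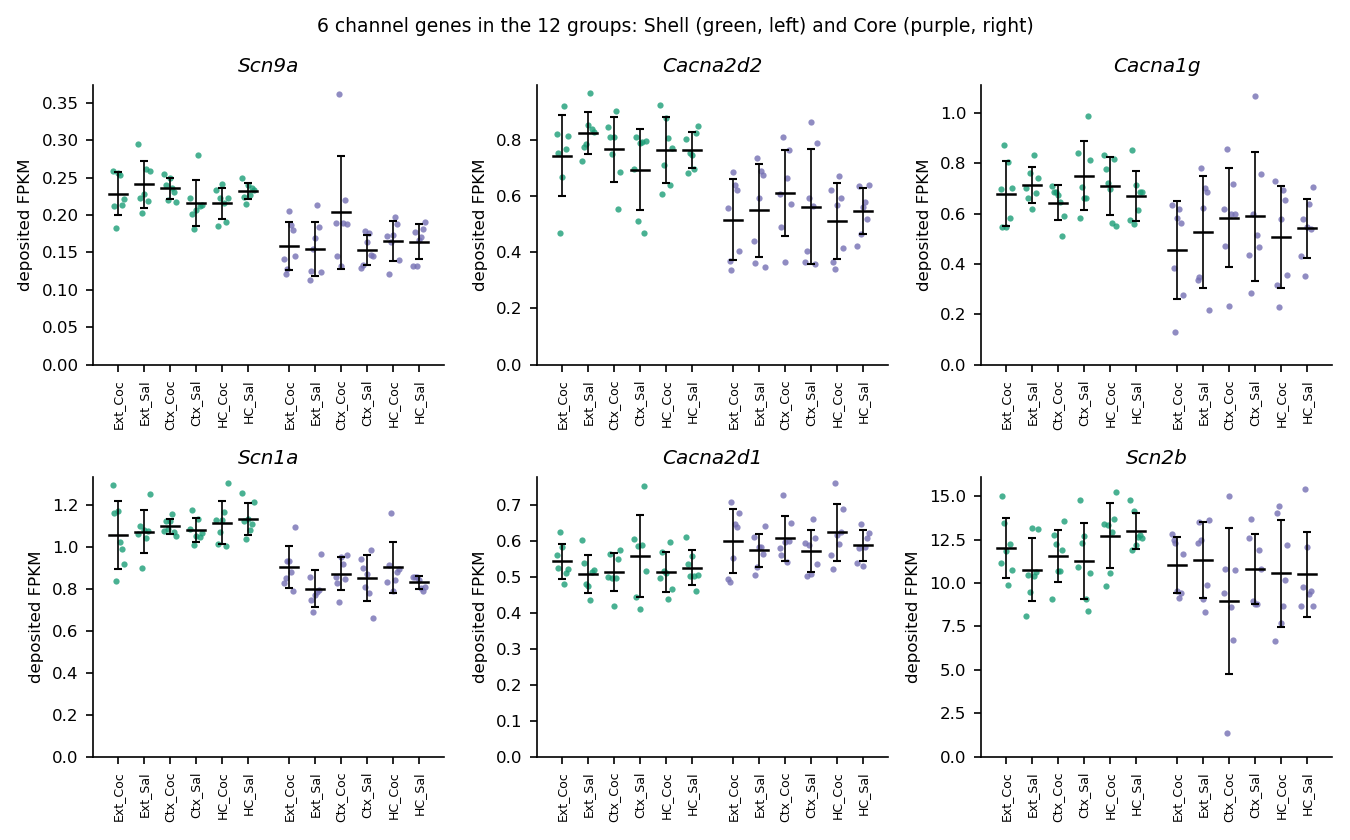
FPKM of Scn9a, Cacna2d2, Cacna1g, Scn1a, Cacna2d1 and Scn2b by group, 1 point per library, cocaine left of saline within each condition and Shell left of Core, with the group mean as a line and the SD as an error bar (n = 7). Shell and Core medians stand apart in Scn9a, being 0.212 to 0.236 FPKM in Shell and 0.145 to 0.189 FPKM in Core, while cocaine and saline groups overlap in each gene shown.

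In Shell, the average cocaine effect over the 3 conditions had 0 members at an unadjusted p under 0.05, against 0.935% of all genes, and in Core 0 against 1.38%. In Core this count depended on the receptor level. It was 9 of 32, 1 positive and 8 negative, with that level as a covariate (20% of all genes), and 11 of 32, 4 positive and 7 negative, with the covariate and without 17-F (12.9%). After subtraction of the receptor level and without 17-F it was 10 of 30, all positive (4.9%). None of these members passed the adjusted threshold by edgeR, and their signs differed between the settings. For the 23 members far above the receptor level, the 95% intervals of that average ran from -0.20 to 0.49 in Shell and from -0.49 to 0.44 in Core on the log2 scale. Their median was 0.02 in Shell and 0.03 in Core, against -0.01 and -0.03 over all genes.

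By condition, most of the 23 abundant members shared a sign, without passing the test. In Shell Ext, 21 of 23 were positive for cocaine against saline (median 0.09), in Shell HC 23 of 23 (0.11), and in Shell Ctx 2 of 23 (-0.13). Receptor means for cocaine and saline were 0.215 and 0.246 FPKM in Shell Ext, 0.153 and 0.176 FPKM in Shell HC, and 0.216 and 0.183 FPKM in Shell Ctx. Thus the abundant members were higher where the receptor level was lower. Core showed the same arrangement, with 22 of 23 positive in Ext (0.18), 22 of 23 in HC (0.22) and 0 of 23 in Ctx (-0.28), or 1 of 23 (-0.15) without 17-F. Receptor means there were 0.130 and 0.164 FPKM in Ext, 0.145 and 0.178 FPKM in HC, and 0.281 and 0.122 FPKM in Ctx. With the receptor level as a covariate, 19, 4 and 9 of 23 were positive in Shell Ext, HC and Ctx, and 16, 12 and 8 of 23 in Core.

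**Figure D5:**
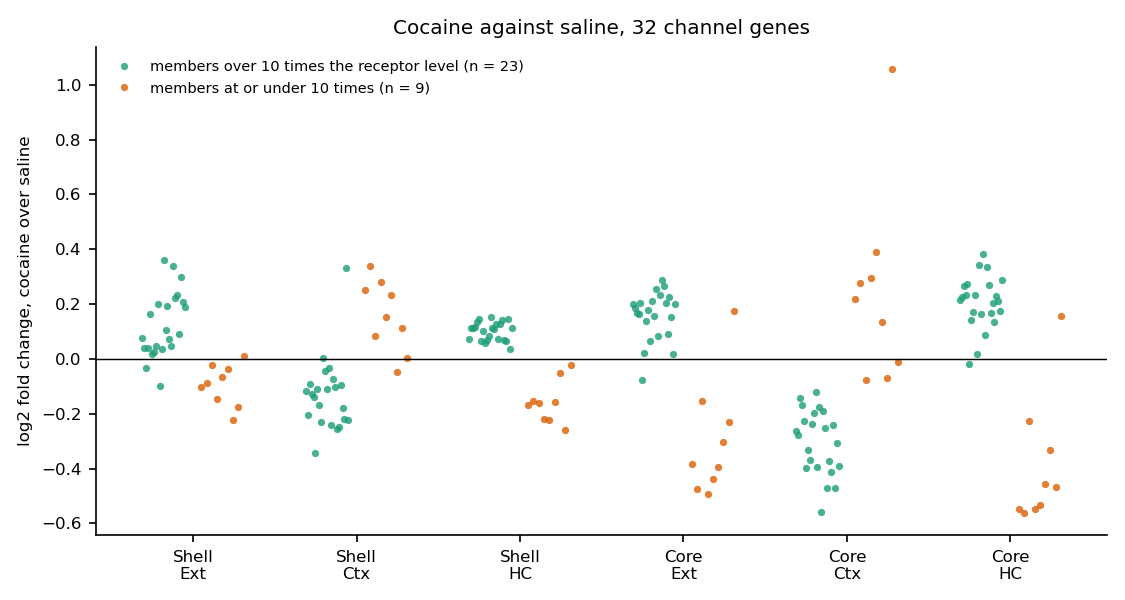
Log2 fold change of cocaine over saline for the 32 channel genes in each condition and subregion, 1 point per gene, with the 23 members over 10 times the receptor level apart from the other 9. In Ext and HC the 23 abundant members lie mostly above 0 and in Ctx mostly below, with medians of 0.09, 0.11 and -0.13 in Shell, while the 9 others tend the other way.

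The T-type pore gene Cacna1g passed an unadjusted p under 0.05 in Ctx in each subregion, without passing the adjusted threshold. In Shell it ran from 0.510 through 0.675 to 0.708 FPKM in Ctx_Coc and from 0.583 through 0.704 to 0.986 FPKM in Ctx_Sal, and all 7 cocaine libraries lay below the saline mean. Its log2 fold change was -0.34 (SE 0.12, adjusted p = 0.731 by edgeR). It was the 1 member of 32 under the unadjusted threshold there, where 4.83% of all genes were. In Core its log2 fold change was -0.40 (SE 0.17, adjusted p = 0.433 by edgeR). The FPKM of the Core groups overlapped, with medians of 0.600 in Ctx_Coc and 0.516 in Ctx_Sal.

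In Core Ctx, 3 of 32 members passed an unadjusted p under 0.05, against 10.9% of all genes. Besides Cacna1g these were Scn7a (log2 fold change 1.06, SE 0.43, adjusted p = 0.433 by edgeR) and Cacna1i (-0.37, SE 0.17, adjusted p = 0.433). Library 17-F, which belongs to Ctx_Coc, held the highest Scn7a level of that group, 0.552 FPKM, and without it the log2 fold change of Scn7a was 0.43. Without 17-F, 1 member passed in Core Ctx, Cacna1g (-0.40, adjusted p = 1.00 by edgeR), against 1.79% of all genes. With the receptor level as a covariate, 8 of 32 passed in Core Ctx, all negative. With the covariate and without 17-F it was 9, 1 positive and 8 negative. The shares of all genes are not given for these 2 counts. None of these members was called, the lowest adjusted p with the covariate being 0.0751 by edgeR (Scn10a). In the main fit, 0 members passed in the 2 other conditions of Core and in Shell Ext and HC. The shares of all genes were 0.574% in Core Ext, 0.593% in Core HC, 1.57% in Shell Ext and 1.34% in Shell HC. In Core HC the fit without 17-F, a library of another group, had 2, the L-type pores Cacna1c and Cacna1d (0.26 and 0.23, adjusted p = 0.718 for each by edgeR), against 1.06%. The lowest p in Shell Ext was that of Cacnb1, at 4.96 ± 0.79 FPKM in Ext_Coc and 4.03 ± 0.98 FPKM in Ext_Sal (SD, n = 7 each), with a log2 fold change of 0.36 (adjusted p = 0.998 by edgeR) and 7 of 7 cocaine libraries above the saline mean.

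Between conditions, the most members passed an unadjusted p under 0.05 by edgeR in Shell Ext_Coc against HC_Coc, 10 of 32, all lower in Ext_Coc, against 8.42% of all genes. The L-type pore gene Cacna1c had the lowest p of these, with a log2 fold change of -0.30 (SE 0.10, adjusted p = 0.464 by edgeR). The members' median was -0.21, against 0.05 over all genes. Receptor means were 0.215 FPKM in Ext_Coc and 0.153 FPKM in HC_Coc, and with the receptor level as a covariate 1 of 32 passed, against 3.73% of all genes. Ctx_Coc against HC_Coc in Shell had 7 of 32, 6 lower, against 15.9% of all genes, with Cacna1g at a log2 fold change of -0.30 and Cacna1i at -0.28, and there the receptor means were 0.216 and 0.153 FPKM. With the covariate 0 of 32 passed there, against 2.68%, while DESeq2, without it, had 12, against 21.9%, and 10 for Ext_Coc against HC_Coc, against 11.9%. Ext_Coc and Ctx_Coc are both set against HC_Coc here and share it. Ext_Coc against Ctx_Coc in Shell had 0 of 32, against 0.705%.

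Among saline libraries of Shell, Scn4b averaged 4.64 ± 1.63 FPKM in Ext_Sal and 6.69 ± 1.62 FPKM in HC_Sal (SD, n = 7 each), with a log2 fold change of -0.61. It was 1 of 6 members at an unadjusted p under 0.05 in that comparison, against 5.78% of all genes, and was not called. In Ext_Sal against Ctx_Sal 7 of 32 members passed the unadjusted threshold, against 8.32% of all genes. Of these, Scn8a averaged 1.23 ± 0.12 FPKM in Ext_Sal and 1.44 ± 0.21 FPKM in Ctx_Sal (SD, n = 7 each), with 7 of 7 Ext_Sal libraries below the Ctx_Sal mean, and its log2 fold change was -0.41 (SE 0.14, adjusted p = 0.509 by edgeR). Cacna2d1 had a log2 fold change of -0.33 (SE 0.12, adjusted p = 0.509 by edgeR). Ctx_Sal against HC_Sal had 0 of 32, against 1.55%. The receptor mean was 0.246 FPKM in Ext_Sal, 0.176 FPKM in HC_Sal and 0.183 FPKM in Ctx_Sal. When the receptor level was a covariate, 6 of 32 passed in Ext_Sal against HC_Sal (5.49% of all genes), 5 in Ext_Sal against Ctx_Sal (4.62%) and 2 in Ctx_Sal against HC_Sal (5.17%).

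In Core, 0 or 1 members passed the unadjusted threshold in each comparison of conditions in the main fit. Ctx_Coc against HC_Coc had 1 of 32, Cacna1d, whose L-type channel opens at lower voltage than that of Cacna1c (log2 fold change -0.27), against 4.18% of all genes. Ext_Coc against Ctx_Coc had 1, Scn7a (-0.998), against 9.52%, and Ext_Sal against Ctx_Sal had 1, Cacna1g (-0.36), against 0.912%. The other 3 had 0 of 32, against 0.347% for Ext_Coc against HC_Coc, 0.23% for Ext_Sal against HC_Sal and 1.21% for Ctx_Sal against HC_Sal. Without 17-F, a library of Ctx_Coc, 0 of 32 passed in Ctx_Coc against HC_Coc (0.582%) and 0 in Ext_Coc against Ctx_Coc (0.951%). With the receptor level as a covariate, 1 passed in Ext_Sal against HC_Sal, 2 in Ctx_Sal against HC_Sal and 4 in Ext_Sal against Ctx_Sal. With the covariate and without 17-F these counts were 2, 4 and 8. Between cocaine groups, 0 or 1 passed under both of these settings. The shares of all genes are not given for the counts with the covariate. None of these members passed the adjusted threshold.

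Differences between conditions in the cocaine effect were tested for themselves and called 0 members by edgeR and by DESeq2. At the unadjusted threshold, Shell had 0 of 32 in Ext minus HC (0.78% of all genes), 1 in Ctx minus HC (7.9%) and 4 in Ext minus Ctx (4.94%). The 1 was Cacna1g, at -0.49 (adjusted p = 0.505 by edgeR), and the lowest p of the 4 was that of Cacna2d1, at 0.43 (adjusted p = 0.665). Core had 0 of 32 in Ext minus HC (0.169%), 7 in Ctx minus HC (11.8%) and 3 in Ext minus Ctx (6.6%). Of the 7, Scn7a stood at 1.52 and Cacna1i, Cacna1a and Cacna1d at -0.54, -0.48 and -0.40 (adjusted p = 0.351 for each by edgeR). Those of Core include library 17-F in the Ctx_Coc group. Without it, Core had 1 in Ctx minus HC, Cacna1i (-0.40, adjusted p = 0.661 by edgeR), against 2.42% of all genes, and 0 in Ext minus Ctx, against 1.76%.

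Across the 12 groups, the span of the group medians varied between members. Among the narrowest spans, the highest group median was 1.09 times the lowest for Cacna1h, 1.11 times for Cacna1a and 1.13 times for Scn8a. Cacna2d2 spanned 1.49 times, from 0.558 FPKM in Core Ext_Coc to 0.829 FPKM in Shell Ext_Sal. Scn4b spanned 1.82 times, with 4.13 FPKM in Shell Ext_Sal and 7.52 FPKM in Core Ext_Sal. The widest span was that of Scn7a, 2.72 times, at medians of 0.0602 to 0.164 FPKM.

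Several members share genomic stretches or neighbours. Scn1a, Scn9a and Scn7a stand next to each other in the RefSeq order, as do Scn3a and Scn2a. All 3 genes of the first cluster had positive Shell over Core values, 0.18, 0.37 and 0.52, of which the first was not called. Cacnb1 overlaps Rpl19, Cacnb3 overlaps Tuba1c, Cacna1c overlaps Dcp1b and Cacna2d3 overlaps Lrtm1 in the annotation of GRCr8. No source used here gives the strand setting of the counting, so reads of overlapping or antisense genes cannot be told apart from those of these members.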

How the data were processed

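Per the labels' protocols, RNA was extracted with a Direct-zol kit and libraries were made with a low-input stranded total RNA kit (SMARTer v3 Pico). The submitters' processing notes name featureCounts and the build mRatBN7.2, from which the deposited counts, whole numbers per gene, were made. The authors also deposited FPKM, which follow from those counts with 1 length per gene. No source used here gives the aligner, the annotation, the strand setting or the handling of molecular identifiers.

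Groups and replicate names were taken from the titles. Counts were tested with R 4.3.3 and edgeR 4.0.16 (limma 3.58.1): filterByExpr with a minimum count of 10, TMM scaling, the two-sided quasi-likelihood F test, and Benjamini-Hochberg adjustment over all genes at a threshold of 0.05. The 42 libraries of a subregion entered 1 fit with the title's series as a covariate (31370 genes in Core, 30911 in Shell). All 84 entered the fit of Shell against Core, with the F series against the numbered series as a covariate (32145 genes). Of 36 comparisons, 26 were within a subregion, 7 set Shell against Core and 3 tested drug effects between subregions. The test was tried on simulated data first. Other settings were DESeq2 1.42.0 (its size factors and its Wald test), no filter, no series covariate, subsets of libraries, and the receptor genes' level as a covariate or subtracted.

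FPKM was used to describe levels and was not tested. Values of some members are not reported here; the counts over members include them. In each comparison, the genes named are members past the threshold or, where fewer than 3 pass, the 3 of lowest p, and up to 4 genes of lowest p for each list of partners or markers. The members and lists were chosen with earlier results of these data known. FPKM is scaled to the total counts of a library and carries neither the TMM scaling of the fits nor a correction for series. FPKM means, and counts of libraries above or below a mean, can therefore differ from the fitted fold changes. Promoter sequences are RefSeq's for build GRCr8, which is not the build of the counts. No proteins are printed.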

Additional observations from a re-analysis of the deposited data

Results flagged for a closer look

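In each of the 12 groups of 7 libraries, the highest and lowest FPKM of each of 30 members was compared with the other 6. Chance alone flags about 1 in 20 groups, and 17 of 360 gene and group combinations stood apart, so single cases carry little weight.

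Of these, 4 came from Core Ctx_Coc 17-F, the library of highest receptor level, where Cacna1h (0.620) and Scn8a (0.926 FPKM) were the lowest of their group and Scn7a (0.552) and Scn9a (0.362 FPKM) the highest. Low values of abundant members and high values of scarce ones therefore stood together in that library. Core HC_Coc 1-9 accounted for 2, with Cacna1b (0.878) and Cacna1c (0.599 FPKM) lowest. Core HC_Sal 15-F accounted for 3, with Cacnb1 (7.52), Scn2a (2.13) and Scn3b (7.22 FPKM) highest.

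The other 8 came 1 to a library. In Core these were high values of Cacna1h in Ctx_Sal 2-17 (1.71 FPKM), Scn1a in HC_Coc 13-F (1.17 FPKM) and Scn3a in Ext_Sal 3-F (0.921 FPKM). In Shell, low values were those of Cacnb3 in HC_Coc 4-7 (3.26 FPKM) and Cacnb4 in Ctx_Sal 3-18 (0.973 FPKM). High values in Shell were those of Scn2a in HC_Coc 6-F (2.18 FPKM), Scn4b in Ext_Sal 4-4 (8.12 FPKM) and Scn9a in Ctx_Sal 4-16 (0.280 FPKM).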

How the results depend on the processing

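Within the subregions and for the differences of drug effects, 0 members were called under each alternative that was run, as in the main test. The calls of Shell against Core averaged over the 6 groups (5 higher, 2 lower) moved as follows, while the 7 called members kept their direction under each alternative, except Scn7a, which was not tested after subtraction. Members higher, each with the share of all genes higher, numbered 3 in the numbered series only (2.75%), 20 with the receptor covariate (29.5%), 17 with that covariate without 17-F (28.6%), 0 in the F series alone (0.0506%), 2 in the F series without 17-F (0.876%) and 10 with the receptor level subtracted and 17-F left out (15.3%). Members lower numbered 1 without a low-count filter (5.43%), 6 without 17-F (13.7%), 1 in the numbered series only (7.08%), 4 and 5 with the covariate with and without 17-F (11.8% and 15.3%), and 0 and 0 in the F series with and without 17-F (0.176% and 1.22%). In the F series alone, each group has 2 libraries. The subtraction and the removal of 17-F from the F series were chosen after seeing the data.

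Within single groups of Shell against Core (0 in Ext_Coc, 1 in HC_Coc, 0 in Ctx_Coc, 1 in Ext_Sal, 2 in HC_Sal and 0 in Ctx_Sal), the counts of members called also moved. The share of all genes called stands in parentheses. DESeq2 size factors gave 1 in Ext_Coc (2.16%), 2 in HC_Coc (1.99%), 2 in Ext_Sal (1.61%) and 1 in Ctx_Sal (2.04%). The DESeq2 Wald test gave 1 in Ext_Coc (2.75%), 2 in HC_Coc (2.36%), 1 in Ctx_Coc (0.709%), 2 in Ext_Sal (2.3%) and 1 in Ctx_Sal (2.69%). The numbered series gave 0 in HC_Coc (0.907%), 0 in Ext_Sal (0.478%) and 1 in HC_Sal (0.788%), and leaving out 17-F gave 2 in Ext_Sal (1.49%). In the order of groups above, the covariate gave 2 (5.22%), 6 (7.23%), 11 (15.3%), 4 (4.99%), 5 (4.66%) and 15 (23.3%), the covariate without 17-F 3 (6.22%), 6 (9.95%), 5 (6.55%), 5 (6.39%), 10 (6.56%) and 16 (27%), and subtraction without 17-F 1 (4.82%), 2 (5.44%), 2 (2.85%), 2 (5.35%), 4 (5.14%) and 1 (6.35%).

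Only a chosen set of members was followed singly across the settings, and some of their values for Shell against Core changed sign. With the covariate, and with it without 17-F, these were Cacna1h (0.060 and 0.018), Scn2a (0.24 and 0.22), Scn2b (0.44 and 0.37), Scn3a (0.27 and 0.26), Scn3b (0.090 and 0.042), Scn4b (0.077 and 0.024) and Scn8a (0.096 and 0.071). Members outside that set turned too. The 4 calcium channel beta subunits went from a median of -0.10 in the main test to 0.21 with the covariate without 17-F. With subtraction they were Scn2a (0.10), Scn2b (0.25) and Scn3a (0.21). Scn2b, near 0 in the main test, was 0.022 with DESeq2 size factors, 0.022 by the DESeq2 Wald test and 0.045 in the numbered series, and Scn3a, also near 0, was 0.028, 0.028 and 0.019 under the same 3 settings and 0.0072 without a filter. Scn1a was -0.017 in the F series without 17-F. For the average cocaine effect in Core, Scn9a was -0.84 with subtraction and Cacna2d4 was 0.030 in the numbered series. The causes were not tested. Of the other values of single genes, 622 were unchanged, 24 lost the call and 11 gained one. The 622 include the members' levels with medians in place of means, which have no threshold and moved by no more than 1 SD. The rest of the 622 stayed on their side of the threshold.

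Titles of Shell series 3 and 4 carry the numbers of Core series 1 and 2, which allows a pairing of 30 Shell with 30 Core libraries. Over the 200 most variable genes, after removal of 6 main components of variation, deviations from the group means correlated within pairs at a median of 0.266. The lowest value was -0.0775, while mismatched libraries had a median of -0.0064. Of the pairs, 28 of 30 were over 0.1 and 15 of 30 correlated best with their own number. Without that removal the median was 0.326, and 12 of 30 did so. Libraries of the same number were thus more alike than mismatched ones. The labels state no pairing, and the main test of Shell against Core did not use it. With the number as a replicate block, 5 members were higher and 1 was lower (4.35% and 6.71% of all genes), with Scn1a (0.24) added and Cacna1i among those lost, and Scn2b was 0.14 and Scn3a 0.062.

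Series and subregion are largely confounded, since only the F series holds both, and the receptor level differs between series. Counting error was not measured at these 13.6 to 22.5 M counts a library. The scarce members rest on levels near those of the receptor genes, with lowest counts of 3 for Cacna1f and 16 for Scn7a.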

Other observations

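The sodium leak channel complex carries a steady sodium current that does not depend on voltage and holds the resting potential up. Its pore gene Nalcn averaged 0.502 ± 0.0375 FPKM in Shell and 0.448 ± 0.0491 FPKM in Core (SD, n = 42 each). The Core mean was exceeded by 41 of 42 Shell libraries, and the gene was not called (edgeR log2 fold change 0.03, adjusted p = 0.778). Its partners Unc79 and Unc80, which hold the complex together, had log2 fold changes of -0.12 (adjusted p = 0.356) and 0.04 (adjusted p = 0.790). With the receptor level as a covariate and without Core Ctx_Coc 17-F, all 3 were called as higher in Shell, as were 28.6% of all genes. The other 2 genes of the list were not analysed here.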
